A study of Mus musculus with 12 samples.

Results

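The 9 genes described here encode the aryl hydrocarbon receptor (Ahr), its partner ARNT (Arnt), and the factors that share this partner or restrain the pathway. They were chosen by gene symbol, with earlier results of these data known, from the 22537 genes of the deposited count table. All 9 had a row there. The partner subunits are Arnt and Arnt2, the factors that pair with them are Ahr, Hif1a, Epas1 and Hif3a, and the restraining proteins are Ahrr, Hif1an and Vhl.

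Apart from FIH (Hif1an) and VHL, these proteins belong to a family of transcription factors with a basic helix-loop-helix and a PAS domain. AHR waits in the cytosol with HSP90 and chaperones, enters the nucleus when it binds a ligand, and needs ARNT to bind DNA and switch on genes such as Cyp1a1. The hypoxia-inducible factors HIF-1 alpha (Hif1a) and HIF-2 alpha (Epas1) need the same partner. In normal oxygen they are hydroxylated, recognised by the VHL protein and degraded, so their activity is set largely at the protein level, which messenger RNA does not show.

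The 12 libraries held liver RNA of female C57BL/6 mice aged 6 months, after 13 weeks on a high-fat diet. There were 3 libraries in each of 4 groups. In AHR Flox the Ahr gene, and in ARNT Flox the Arnt gene, is flanked for recombination but kept. The matching AHR KO and ARNT KO lines are labelled as knockouts of that gene. The age, sex, strain background, diet and tissue were shared by all groups. The sources used here do not give the recombinase line, the cells in which it is active or the part of each gene removed. The labels name no animals, so p-values measure the spread between these libraries.

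Total counts ran from 23585909 to 33255004 per library. Levels are in CPM (counts per library total of equal size, after TMM scaling, which aligns libraries on most of their genes). A count of 0 allows up to 3 counts, which came to 0.0861 to 0.126 CPM. The edgeR quasi-likelihood test was run on 13968 genes and an adjusted p under 0.05 counted as a call. ARNT KO replicate 3 stood apart, at 65.3 on the first principal component against −30.9 to 30.3 for the other libraries, so results are also given without it where that moved them. Hepatocyte markers were abundant in every library (10 of 10 detected), but Alb, the albumin gene, was at 5491 to 7089 CPM in the libraries labelled AHR KO and 5740 CPM in ARNT KO replicate 3, against 51926 to 89275 CPM in the other libraries. The part of that difference in the results below was not tested. Cholangiocyte markers summed to 310 CPM in ARNT KO replicate 3 and to 46.0 and 80.4 CPM in its group mates, and the part of these cells in its values was not tested. Markers of endothelial cells, macrophages, stellate cells and lymphocytes were also present, and in whole liver fewer cells of a type and less RNA per cell cannot be told apart.

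The starts of 7 of the 9 genes could be matched to RefSeq promoter windows of the GRCm38.p6 build, 250 bases before to 50 after the start. They were searched on both strands for GCGTG, core letters bound by AHR with ARNT, and ACGTG, core letters bound by HIF with ARNT. Neither motif is exclusive to 1 factor, so a match does not tell AHR sites from HIF sites. GCGTG stood in 3 of the 7 windows and ACGTG in 1, against 32.37% and 19.62% of all 32817 windows. Arnt, Ahrr and Hif1a are shown because they are the deleted partner, the repressor that AHR itself is known to induce, and the member whose window held ACGTG. Each is written 5′ to 3′ on the gene's strand with the motif letters in capitals. The Arnt window is chr3:95434140-95434439 (+ strand), the Ahrr window chr13:74292282-74292581 (− strand) and the Hif1a window chr12:73907617-73907916 (+ strand).
Arnt: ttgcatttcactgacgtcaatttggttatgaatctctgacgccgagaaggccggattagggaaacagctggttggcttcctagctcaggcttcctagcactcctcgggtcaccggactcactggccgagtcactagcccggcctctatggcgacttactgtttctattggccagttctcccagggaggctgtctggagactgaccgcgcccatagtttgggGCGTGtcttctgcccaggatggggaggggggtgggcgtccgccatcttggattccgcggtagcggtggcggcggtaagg
Ahrr: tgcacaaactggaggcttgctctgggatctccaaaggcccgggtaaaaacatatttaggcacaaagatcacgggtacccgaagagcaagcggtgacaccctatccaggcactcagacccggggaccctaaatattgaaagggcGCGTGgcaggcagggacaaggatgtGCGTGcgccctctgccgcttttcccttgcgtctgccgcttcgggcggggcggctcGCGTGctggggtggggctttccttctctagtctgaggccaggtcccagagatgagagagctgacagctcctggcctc
Hif1a: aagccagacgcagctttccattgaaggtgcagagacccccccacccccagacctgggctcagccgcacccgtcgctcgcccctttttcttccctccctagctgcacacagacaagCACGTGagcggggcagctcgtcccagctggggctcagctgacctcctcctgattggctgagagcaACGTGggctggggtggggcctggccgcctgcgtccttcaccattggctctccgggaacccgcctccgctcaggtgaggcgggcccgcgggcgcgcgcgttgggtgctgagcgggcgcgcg
The Arnt window held 1 GCGTG and the Ahrr window 3, of which 1 was in the longer form TNGCGTG, found in 5.061% of all windows. The Hif1a window held 3 matches to ACGTG, and 2 of these overlap on opposite strands in the palindrome CACGTG. Hif3a also held 2 matches to GCGTG, while Arnt2, Hif1an and Vhl held neither motif. A match is only a match of letters, and binding was not measured.

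Arnt, the partner subunit, was the member that changed with its own deletion. Arnt (chromosome 3, 95434388 to 95497240, + strand, GENCODE vM21 on mm10) was at 47.8, 52.5 and 50.3 CPM in ARNT Flox and at 25.2, 23.9 and 19.0 CPM in ARNT KO. The 3 ARNT KO libraries were the lowest of all 12, and the groups did not overlap. Arnt fell 2.21-fold, from 50.2 ± 2.33 to 22.7 ± 3.30 CPM (SD, n = 3; log2 change −1.15 ± 0.12 SE, edgeR quasi-likelihood adjusted p = 0.00601). The level thus fell by 54.8%, and Arnt counts remained in all 3 libraries. The source of the remaining counts was not tested. The call held without ARNT KO replicate 3 (log2 change −1.03, adjusted p = 0.00193). It was lost with the ARNT groups fitted alone (log2 change −1.14, adjusted p = 0.0747) and without ARNT Flox replicate 2 (−1.11, adjusted p = 0.0557).

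In the AHR lines Arnt was at 51.3, 64.0 and 54.3 CPM in AHR Flox and at 65.5, 68.0 and 55.2 CPM in the libraries labelled AHR KO. These groups overlapped, and Arnt did not pass there (log2 change 0.15 ± 0.12 SE, edgeR adjusted p = 0.679). The change of Arnt in ARNT KO was 2.46-fold lower than its change in the AHR lines, a difference that passed its own test (log2 −1.30 ± 0.17 SE, edgeR adjusted p = 0.0301). It no longer passed when any 1 of 8 libraries was left out (AHR Flox 1 or 3, AHR KO 1 or 2, any ARNT Flox library or ARNT KO 2), at values within −1.38 to −1.18 and adjusted p up to 0.175. Without ARNT KO replicate 3 it was −1.18 (adjusted p = 0.00470). Among the 7 members tested edgeR called 1 lower in ARNT KO, beside 0.0358% of all genes tested called lower and 0.0573% in either direction. Arnt and Epas1 were at an unadjusted p under 0.05, beside 5.88% of all genes, and their groups did not overlap, beside 10.8%. In the difference between the effects it called 1 lower, beside 0.0286% lower and 0.0430% in either direction.

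Ahr did not fall in the libraries labelled AHR KO. Ahr (chromosome 12, 35497974 to 35535038, − strand) was at 53.9, 78.8 and 72.4 CPM in AHR Flox and at 84.4, 94.8 and 80.3 CPM in those libraries. All 3 lay above all 3 of AHR Flox. The difference did not pass (log2 change 0.34 ± 0.17 SE, edgeR adjusted p = 0.470) and did not pass under any of 22 alternatives, where it ran from 0.19 to 0.44. Counts over the whole gene cannot check the AHR KO label, because the deleted part is not given and the counts were not divided by exon. For that reason this group is called labelled AHR KO throughout, and directions drawn from it rest on the label alone.

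In the ARNT lines Ahr was at 71.6, 80.1 and 96.4 CPM in ARNT Flox and 62.1, 78.4 and 92.4 CPM in ARNT KO. Both groups spanned almost the same range, and Ahr did not pass (log2 change −0.09 ± 0.17 SE, edgeR adjusted p = 1.00). Its direction turned without ARNT Flox replicate 3 (0.03) and without ARNT KO replicate 1 (0.05). The spread of Ahr between libraries of a group was at the 60.5th percentile of all tested genes, so changes in Ahr were measured less precisely than those in Hif1a and Epas1, at percentiles 12.1 and 10.8.

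**Figure D1:**
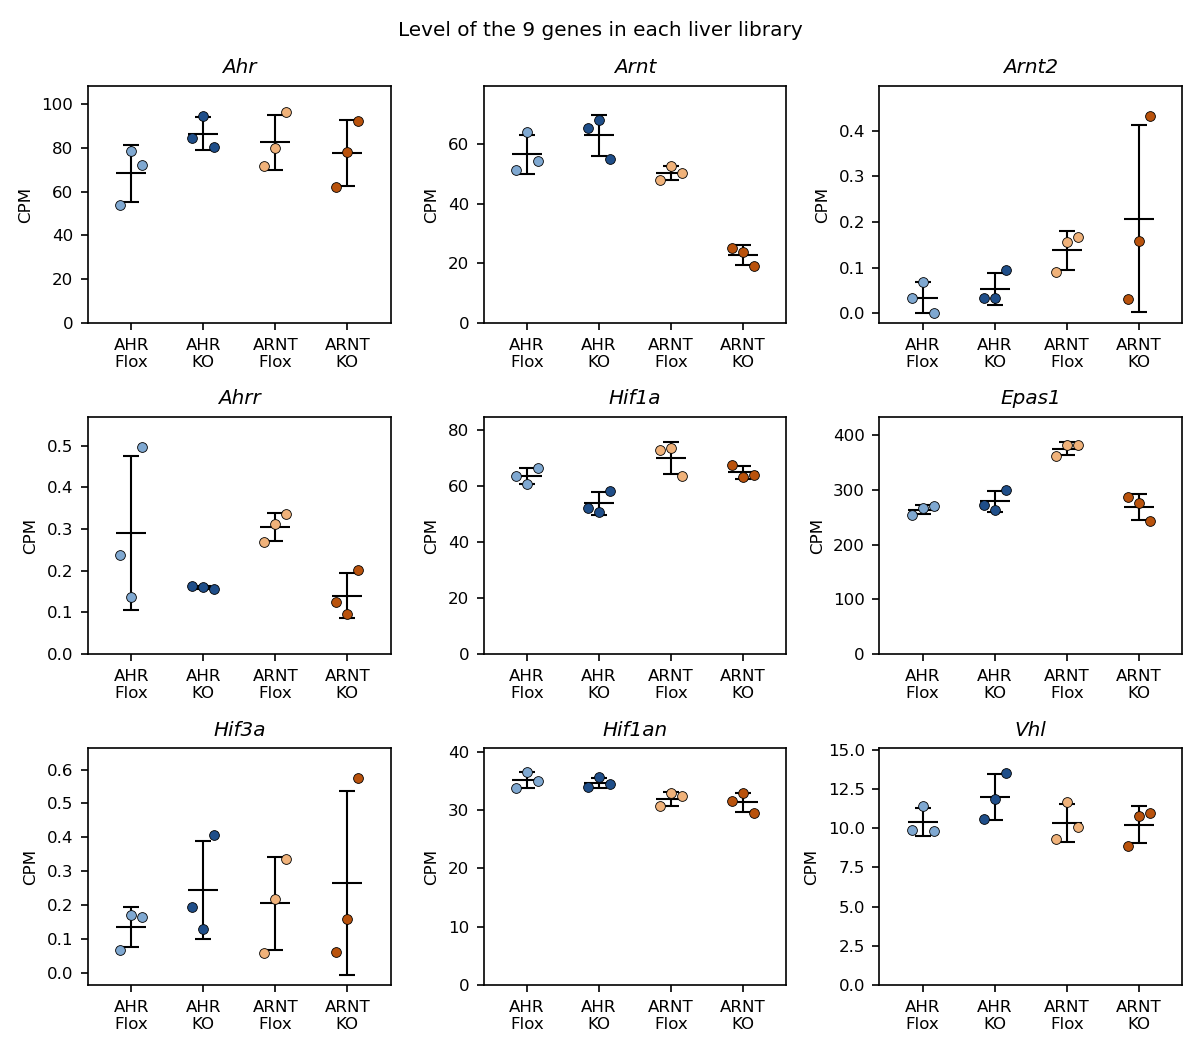
Level of each of the 9 genes in CPM (y axes differ between panels) in the 12 liver libraries by group; points are libraries, long bars the mean and whiskers the SD over 3 libraries. Arnt is lowest in ARNT KO at 19.0 to 25.2 CPM, Epas1 is highest in ARNT Flox at 362 to 382 CPM, and Arnt2, Ahrr and Hif3a stay under 1 CPM in every library.

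Epas1, which encodes HIF-2 alpha, known in liver for control of lipid and iron genes, differed mainly in one control line. Epas1 (chromosome 17, 86753700 to 86833410, + strand) was at 362, 382 and 382 CPM in ARNT Flox, against 255, 267 and 270 CPM in AHR Flox, 272, 264 and 301 CPM in the libraries labelled AHR KO, and 287, 276 and 243 CPM in ARNT KO. Every ARNT Flox library lay above the other 9 libraries, which overlapped each other. Between the control lines Epas1 was called higher in ARNT Flox, 1.42-fold (log2 change 0.51 ± 0.09 SE, edgeR adjusted p = 0.0450). It was the single member called of 7 tested, beside 0.136% of all genes called higher and 0.329% in either direction, and the single member at an unadjusted p under 0.05, beside 19.9%. That call is narrow: with the replicate number as a block the adjusted p was 0.0897, and it was lost under 13 of 22 alternatives, which include leaving out any library other than ARNT KO 1 or 3. The call held with DESeq2, with limma-voom quality weights and without ARNT KO replicate 3 (log2 change 0.51, edgeR adjusted p = 0.00282). Over the 22 alternatives the log2 change ran from 0.48 to 0.54 and the adjusted p reached 0.209. No other member passed between the control lines: the log2 change was 0.27 ± 0.17 SE for Ahr, −0.17 ± 0.12 SE for Arnt and 0.14 ± 0.08 SE for Hif1a (edgeR adjusted p = 0.388, 0.445 and 0.346).

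In ARNT KO Epas1 was 1.40-fold lower than in ARNT Flox, with no overlap, but missed the threshold (log2 change −0.48 ± 0.09 SE, edgeR adjusted p = 0.217, unadjusted p = 0.000217). It passed with DESeq2 (adjusted p = 2.62e-05), with limma-voom quality weights (adjusted p = 0.00489) and without ARNT KO replicate 3 (log2 change −0.41, adjusted p = 0.0422). Under the other 19 of 22 alternatives it did not pass, with an adjusted p up to 0.826. The Flox comparison and the ARNT comparison share the ARNT Flox libraries, so the high ARNT Flox level enters both. The difference of Epas1 between the ARNT and AHR effects also missed the threshold (log2 −0.56 ± 0.13 SE, edgeR adjusted p = 0.207), and passed with DESeq2 (adjusted p = 0.00147) and with quality weights (adjusted p = 0.0265). This difference did not pass under the other 19 of 21 alternatives, with an adjusted p up to 0.525. These include the fit without ARNT KO replicate 3 (log2 −0.49, edgeR adjusted p = 0.0631). In the AHR lines the groups overlapped and Epas1 did not pass (log2 change 0.08 ± 0.09 SE, edgeR adjusted p = 0.789). Endothelial cells express Epas1, and their 8 markers, none at 0 in all libraries, summed to 345 to 406 CPM in ARNT Flox, 327 to 371 in ARNT KO, 290 to 335 in AHR Flox and 261 to 332 in the libraries labelled AHR KO. All 8 were higher in ARNT Flox than in AHR Flox (median log2 0.28; edgeR called 0, with 3 at an unadjusted p under 0.05), and their part in the Epas1 difference was not tested. Lymphocyte (8 of 8, median 0.60), stellate cell (8 of 8, 0.39) and macrophage markers (7 of 8, 0.39) were higher there too, as were cholangiocyte markers (5 of 5 tested, 0.11), while hepatocyte markers were lower (8 of 10, median −0.22), with 0 called in each list. At an unadjusted p under 0.05 in edgeR, 5 macrophage, 4 lymphocyte and 2 stellate cell markers were higher. So were 0 cholangiocyte markers, and 1 hepatocyte marker was lower. Of all tested genes, 19.9% were at that level in either direction.

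Hif1a, which encodes HIF-1 alpha, the inducer of glycolytic genes in low oxygen, was somewhat lower in the libraries labelled AHR KO. Hif1a (chromosome 12, 73901375 to 73947530, + strand) was at 63.4, 60.5 and 66.2 CPM in AHR Flox and 52.1, 50.7 and 58.3 CPM in those libraries. The groups did not overlap, as for Ahr, which was so for 21.2% of all tested genes in this comparison. The difference did not pass adjustment (log2 change −0.24 ± 0.08 SE, edgeR adjusted p = 0.264, unadjusted p = 0.0128) nor under any of the 22 alternatives, where the adjusted p ran from 0.127 to 0.614. In ARNT Flox it was at 72.7, 73.6 and 63.4 CPM and in ARNT KO at 67.4, 63.1 and 64.0 CPM, with overlap and no call (log2 change −0.11 ± 0.08 SE, edgeR adjusted p = 0.948).

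Of the 7 tested members edgeR thus called 0 in the libraries labelled AHR KO against AHR Flox, beside 0.0788% of all genes. At an unadjusted p under 0.05 there was 1 (Hif1a, lower), beside 5.58% of all genes lower and 11.9% in either direction, and DESeq2, limma-voom and limma-voom with quality weights also called 0. The members' median log2 change was 0.15, against 0.01 over all genes tested. In ARNT KO the median was −0.09 against 0.01. Without ARNT KO replicate 3, where Ahrr also entered the test, it was −0.32 over 8 members. There 2 were called lower (Arnt and Epas1), beside 141 of 14073 genes called lower, against 5 of 13968 in the main fit. Ahrr, close to the detection limit, was not called there (log2 change −1.43, edgeR adjusted p = 0.234).

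Neither Hif1an nor Vhl, the restraining genes with enough counts to test, passed in any comparison. Hif1an (chromosome 19, 44562850 to 44576274, + strand) encodes FIH, the asparagine hydroxylase that blocks HIF coactivator binding. It ran from 29.5 to 36.6 CPM over all 12 libraries, and its spread within groups was at the 1.78th percentile of tested genes. It did not pass in AHR KO-labelled (log2 change −0.02 ± 0.07 SE) or ARNT KO libraries (−0.03 ± 0.07 SE), with edgeR adjusted p of 0.946 and 1.00. It was lower in all ARNT Flox libraries (30.6 to 32.9 CPM) than in all AHR Flox libraries (33.8 to 36.6 CPM), a separation seen in 35.8% of tested genes, with no call (log2 change −0.14 ± 0.07 SE, edgeR adjusted p = 0.279).

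Vhl (chromosome 6, 113623959 to 113631633, + strand), the substrate receptor of the ligase that marks hydroxylated HIF for degradation, ran from 8.88 to 13.5 CPM. It was at 9.88, 11.4 and 9.86 CPM in AHR Flox and 10.6, 11.8 and 13.5 CPM in the libraries labelled AHR KO, with overlap and no call (log2 change 0.21 ± 0.13 SE, edgeR adjusted p = 0.585). In ARNT KO its log2 change was −0.02 ± 0.13 SE (adjusted p = 1.00). Both signs appeared across alternatives there, so Vhl shows no direction in ARNT KO.

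**Figure D2:**
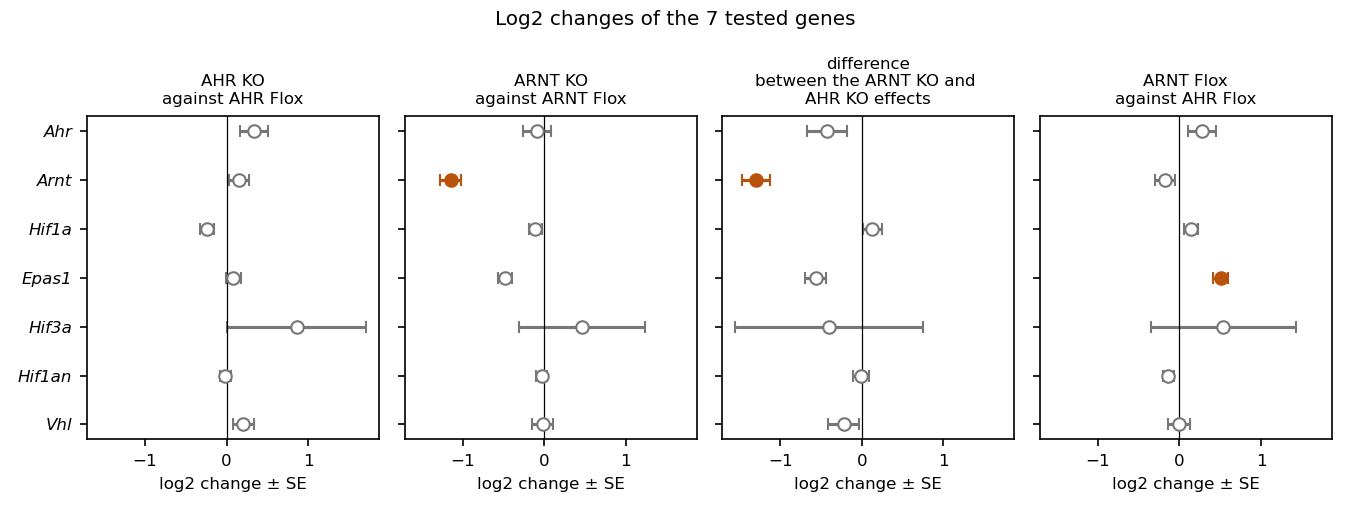
Log2 change with its SE (x axis) for the 7 members tested, in 4 comparisons of 3 libraries a group; filled points have an edgeR adjusted p under 0.05. Arnt is filled in ARNT KO at −1.15 and in the difference between effects at −1.30, and Epas1 is filled between the control lines at 0.51.

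Arnt2, Ahrr and Hif3a were close to the detection limit. Ahrr (chromosome 13, 74211118 to 74292331, − strand), the AHR repressor that competes for ARNT and is itself an AHR target, gave AHR Flox counts of 7, 4 and 12 and 5 in each library labelled AHR KO. ARNT Flox had 9, 10 and 8 counts and ARNT KO had 4, 3 and 7. The 3 ARNT KO libraries lay below the 3 ARNT Flox libraries. Too few counts kept Ahrr out of the main test, and with no filter it did not pass in ARNT KO (log2 change −1.09 ± 0.50 SE, edgeR unadjusted p = 0.0493, adjusted p = 0.951), nor without ARNT KO replicate 3 (−1.43, adjusted p = 0.234).

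Hif3a (chromosome 7, 17031507 to 17062427, − strand), whose product competes with the other HIF alpha subunits, gave AHR Flox counts of 2, 5 and 4, and 6, 4 and 13 in the libraries labelled AHR KO. ARNT Flox had 2, 7 and 8 counts and ARNT KO had 2, 5 and 20. The single high value was ARNT KO replicate 3, and without that library the log2 change of Hif3a in ARNT KO turned from 0.46 ± 0.77 SE to −0.79, neither passing. Arnt2 (chromosome 7, 84246278 to 84410176, − strand), the paralog of Arnt known mainly from brain and kidney, had at most 15 counts in a library, also ARNT KO replicate 3, and 0 to 5 in the others. With no filter its log2 change in ARNT KO was 0.61 ± 0.75 SE (edgeR adjusted p = 0.978), so no rise of the paralog where Arnt fell could be detected at this depth.

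Compared per length (CPM per kilobase of the longest transcript), Epas1 was the most abundant member at a mean of 53.8, with every library from 44.0 to 69.3. Ahr followed at 14.2 (9.72 to 17.4), Hif1a at 13.3 (10.7 to 15.6) and Arnt at 11.1 (4.38 to 15.7). Then came Hif1an at 5.37 and Vhl at 3.84, while Ahrr, Hif3a and Arnt2 were at 0.0440, 0.0331 and 0.0173. Ranges overlapped between all neighbours in this order except Epas1 over Ahr and Vhl over Ahrr. These means pool the 4 groups, ARNT KO included, and the middle of the order differed between groups: in AHR Flox it was Hif1a at 13.4, Arnt at 13.1 and Ahr at 12.3, and in the libraries labelled AHR KO it was Ahr at 15.6, Arnt at 14.5 and Hif1a at 11.4. Per kilobase of mean transcript length Vhl (10.5) stood above Hif1an (9.43).

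The ratios of Ahr, Hif1a and Epas1 to Arnt, in the same CPM per kilobase, were higher in ARNT KO, where Arnt fell. Ahr per Arnt was 1.92, 2.55 and 3.80 in the ARNT KO libraries, against 1.17, 1.19 and 1.49 in ARNT Flox, with no overlap. Hif1a per Arnt had a mean of 1.28 in ARNT Flox and 2.65 in ARNT KO, and Epas1 per Arnt of 5.86 and 9.34, in each with all ARNT KO libraries above all ARNT Flox libraries. The sum of the 4 partner factors per Arnt was 8.42 ± 0.217 and 14.8 ± 1.93 (SD, n = 3). In an exact two-sided permutation test these gave p = 0.1, the smallest that 3 against 3 allows, and 0.136 after adjustment over 15 tests, so the design cannot pass. The control lines separated as fully, at the same p: ARNT Flox lay above AHR Flox without overlap in all 4 ratios to Arnt, with means of 0.939 in AHR Flox and 1.28 in ARNT Flox for Ahr, 1.04 and 1.28 for Hif1a, 3.68 and 5.86 for Epas1, and 5.66 and 8.42 for the sum. The ARNT Flox libraries are shared by both comparisons. In the libraries labelled AHR KO the means were 1.08, 0.793, 3.53 and 5.40, overlapping AHR Flox in each ratio (exact permutation p from 0.2 to 0.8).

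The ratio of Epas1 to Hif1a, the 2 HIF alpha subunits, does not involve Arnt. It was 3.44, 3.78 and 3.49 in AHR Flox and 4.48, 4.46 and 4.42 in the libraries labelled AHR KO. ARNT Flox stood at 4.26, 4.45 and 5.15, ARNT KO at 3.65, 3.75 and 3.25. The ratio was higher in the libraries labelled AHR KO than in AHR Flox and lower in ARNT KO than in ARNT Flox, and neither pair overlapped. The control lines separated without overlap as well, the mean ratio being 3.57 for AHR Flox and 4.62 for ARNT Flox. Each of these comparisons gave an exact permutation p of 0.1, the smallest possible, and 0.136 after adjustment over 15 tests. The difference between the AHR pair and the ARNT pair was not tested.

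**Figure D3:**
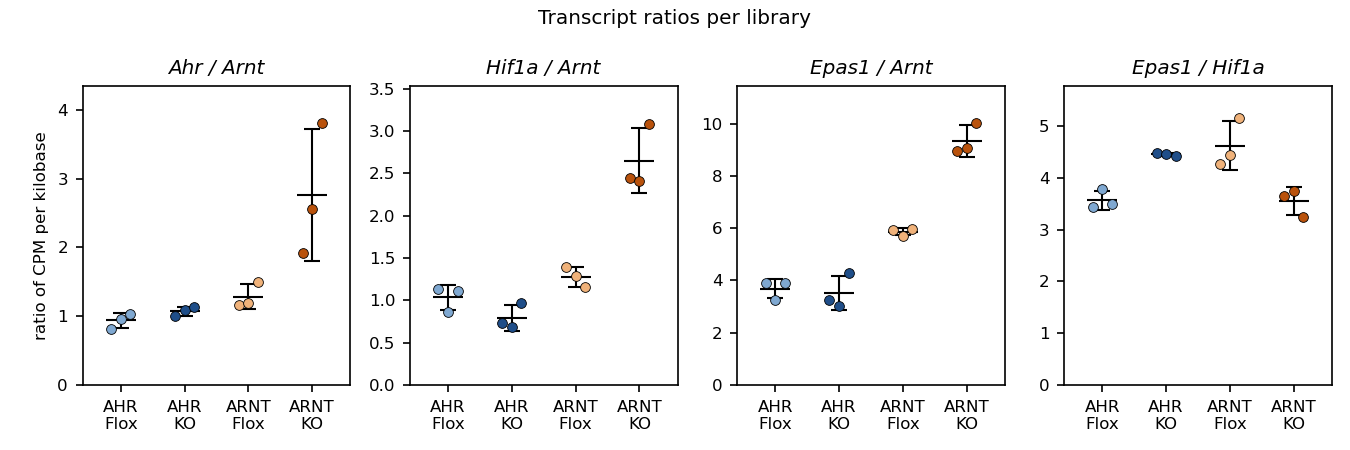
Ratios of CPM per kilobase in each library (y axis from 0) by group; points are libraries, long bars the mean and whiskers the SD over 3 libraries. Ahr per Arnt reaches 1.92 to 3.80 in ARNT KO, and Epas1 per Hif1a is higher in the libraries labelled AHR KO and ARNT Flox than in the other groups.

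The genes that work with the members were read from 6 lists. Of the AHR targets, 5 of 6 could be tested and edgeR called 0 in the libraries labelled AHR KO (0 at an unadjusted p under 0.05) and 0 in ARNT KO (2 at that level, 1 each way). Of all genes tested, 11.9% and 5.88% were at that level in these comparisons. DESeq2 and limma-voom also called 0 in both. In ARNT KO limma-voom with quality weights called 2, Tiparp higher and Cyp1a2 lower, beside 422 of all 13968 genes. Its median log2 change over the 5 genes was −0.90. The edgeR median there was 0.02. Without ARNT KO replicate 3 the edgeR median was −1.10 over 6 genes. The gene added there was Ahrr, at only 4 and 3 counts in ARNT KO replicates 1 and 2. Tiparp had a positive log2 change in that fit. Calls there were 2, Cyp1a2 and Nqo1, both lower, beside 141 of 14073 genes called lower. Cyp1a2, the constitutive liver member of the Cyp1 family, stood at 291 and 265 CPM for replicates 1 and 2 of ARNT KO but at 780 CPM for replicate 3, within the 743 to 836 CPM of ARNT Flox. Its log2 change was −0.82 ± 0.33 SE (edgeR adjusted p = 0.769), and −1.50 (adjusted p = 0.000495) without replicate 3. Nqo1, a quinone reductase gene, was at 94.8 CPM in that library and at 14.9 and 13.2 CPM in its group mates. Tiparp, which encodes an ADP-ribosyltransferase that restrains AHR, had a log2 change of 0.37 ± 0.12 SE in ARNT KO (edgeR adjusted p = 0.637), and passed with quality weights (0.49, adjusted p = 0.0153). Cyp1a2 in the libraries labelled AHR KO was at 350, 283 and 310 CPM against 431, 530 and 424 CPM in AHR Flox, with no overlap and no call (log2 change −0.56 ± 0.33 SE, edgeR adjusted p = 0.547, and 0.0446 without ARNT KO replicate 3). Nqo1 had a log2 change of −0.27 there (adjusted p = 0.908).

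Of 14 HIF targets, 13 could be tested, and Epo was at 0 counts in all 12 libraries. In ARNT KO edgeR called 0, with 3 lower at an unadjusted p under 0.05 and a median log2 change of −0.11, against 0.01 over all genes. At that unadjusted level were 5.88% of all genes in either direction. limma-voom called 0, DESeq2 called 1 and limma-voom with quality weights 3, all lower, beside 5, 56 and 422 of all 13968 genes in either direction. Without ARNT KO replicate 3 edgeR called 2 lower, Ndrg1 and Hk2, beside 141 of 14073 genes called lower. Ankrd37, an ankyrin repeat gene induced in hypoxia, was at 0.403, 0.635 and 0.574 CPM in ARNT KO against 2.32, 2.88 and 1.22 CPM in ARNT Flox. The groups did not overlap, but it missed the threshold (log2 change −2.00 ± 0.40 SE, edgeR adjusted p = 0.257). It passed with DESeq2 (adjusted p = 0.00252) and with limma-voom quality weights (adjusted p = 0.0446). Under the other 20 of 22 alternatives Ankrd37 did not pass, with an adjusted p up to 0.912. Egln3, a prolyl hydroxylase that is both a HIF target and a HIF regulator, had a log2 change of −0.60 ± 0.21 SE (edgeR adjusted p = 0.680). For the libraries labelled AHR KO edgeR called 0, with 0 at an unadjusted p under 0.05, beside 11.9% of all genes. DESeq2 and limma-voom also called 0 there. The smallest p there belonged to Egln3 (log2 change −0.40, edgeR adjusted p = 0.488) and the glucose transporter gene Slc2a1 (0.31, adjusted p = 0.625).

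The other lists held no edgeR or limma-voom call in either comparison. Among 11 genes of oxygen sensing and HIF degradation, 4 were higher at an unadjusted p under 0.05 in the libraries labelled AHR KO and 1 lower in ARNT KO, beside 11.9% and 5.88% of all tested genes in either direction. Gnb2l1, the RACK1 gene whose product promotes HIF-1 alpha degradation, stood at 281, 307 and 322 CPM in the libraries labelled AHR KO against 248, 236 and 224 CPM in AHR Flox. It missed the threshold (log2 change 0.36 ± 0.09 SE, edgeR adjusted p = 0.131) and passed with DESeq2 (adjusted p = 0.00138), which called 359 of all 13968 genes there. Under the other 21 of 22 alternatives Gnb2l1 did not pass, with an adjusted p up to 0.508. Of the elongin genes, which join VHL to its ligase, Tceb2 had a log2 change of 0.22 there (edgeR adjusted p = 0.242) and Tceb1 one of 0.12 in ARNT KO (adjusted p = 0.904). Of the 6 genes of the AHR cytosolic complex, 6 had a positive log2 change in the libraries labelled AHR KO (median 0.17), 1 of them at an unadjusted p under 0.05: Stub1, a ubiquitin ligase of the chaperone system (0.28 ± 0.10 SE, edgeR adjusted p = 0.298). Hsp90ab1 followed at 0.19 (adjusted p = 0.558). In ARNT KO 3 of the 6 were positive, led by the HSP90 gene Hsp90aa1 (0.52 ± 0.24 SE, edgeR adjusted p = 0.833).

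Of 15 other bHLH-PAS genes 9 could be tested, and 2 were lower at an unadjusted p under 0.05 in the libraries labelled AHR KO: the coactivator Ncoa1 (log2 change −0.29 ± 0.08 SE, edgeR adjusted p = 0.189) and Clock (−0.32 ± 0.11 SE, adjusted p = 0.286). Of all tested genes, 11.9% were at that level there and 5.88% in ARNT KO, in either direction. In ARNT KO there were 0 at that level, the smallest p being those of the clock genes Arntl (log2 change 0.71, adjusted p = 0.884) and Per2 (0.10, adjusted p = 0.998). The 7 shared coactivators and repressors had 0 at that level in either comparison, with medians of −0.10 and −0.03. The corepressor gene Sin3a (log2 change −0.24, edgeR adjusted p = 0.481) and the acetyltransferase gene Ep300 (−0.10, adjusted p = 0.729) were named for the libraries labelled AHR KO. Cited2 (−0.19, adjusted p = 0.992) was named for ARNT KO.

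**Figure D4:**
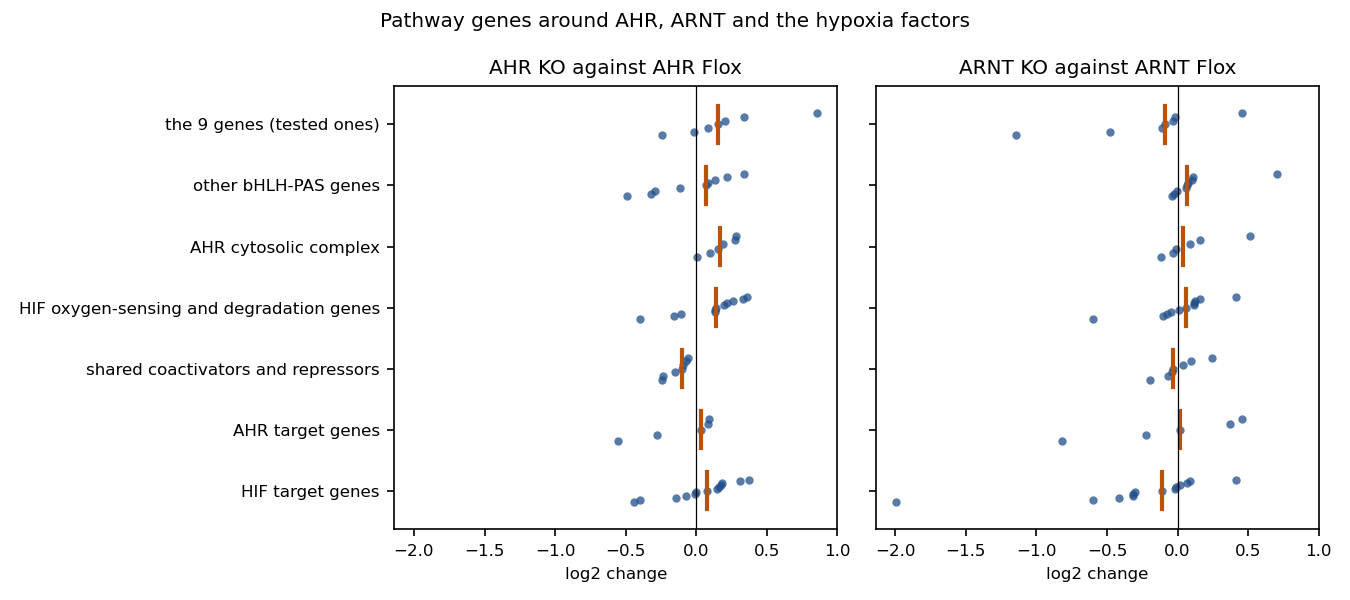
Log2 change (x axis) of each tested gene of the member set and 6 lists in the libraries labelled AHR KO (left) and in ARNT KO (right); points are genes and orange bars the list medians. Only Arnt, at −1.15 in ARNT KO, passed the edgeR threshold, and Ankrd37 is the lowest point at −2.00.

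The genes whose log2 CPM most resembled each member over the 12 libraries were taken from 12258 genes. For Arnt these were Glt1d1 (Pearson r = 0.901), Neb (0.870) and Lifr (0.863). For Epas1 they were Cd99l2 (0.933), Cyp2g1 (0.888) and Rad51l1 (0.886). Cyp2g1 and Rad51l1 were higher in ARNT Flox than in AHR Flox (log2 change 1.94 and 1.11, edgeR adjusted p = 0.0156 and 0.0197). Both were lower in ARNT KO than in ARNT Flox (−1.80 and −1.15, edgeR adjusted p = 0.0485 and 0.0382). As they were picked for likeness to Epas1 in these libraries, sharing its pattern is no separate result. Hif1a was closest to Dnajb12 (0.940), Zfp652 (0.933) and C78339 (0.930), and Ahr to Nras (0.898), Clec9a (0.883) and Vsig2 (0.858). These values describe 12 libraries that share depth and group structure, and no test was attached.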

How the data were processed

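The deposited table held raw counts per gene made by the authors, whole numbers in 12 columns. Per the labels, Trizol was used for extraction, poly-A RNA was enriched, and the NEBNext Ultra II kit made the libraries. Build mm10, DESeq2 1.20.0, R 3.5.1, STAR 2.6.0c, STAR 2.5.4b and bcl2fastq 2.20 are listed in the submitters' processing notes. The sources used here do not give the counter, strand setting or annotation, so reads of overlapping or antisense genes may be included.

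All 12 libraries entered 1 edgeR 4.0.16 fit (R 4.3.3) with a mean per group. Genes passing filterByExpr (minimum count 10, minimum total 15) were scaled with TMM and tested with the two-sided quasi-likelihood F test, with Benjamini-Hochberg adjustment over all 13968 genes tested. The alternatives used limma 3.58.1 and DESeq2 1.42.0. The median change of all genes stayed within 0.1 log2 units of the main value under each scaling. Positions and lengths (longest transcript) are from GENCODE vM21. Reads carry no molecular identifiers, so count limits cover counting error only. No libraries of a group agreed within sampling noise (chi-square per degree of freedom 16.6 to 237).

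The members and lists were chosen with earlier results of these data known. The naming rule takes all members, the called genes of each list, or else its 2 genes with the smallest p in a comparison, and the 3 genes most like Ahr, Arnt, Hif1a and Epas1 at a mean of at least 1 CPM. Some genes the rule names are not reported here. Residuals of same-numbered libraries of the 2 Flox groups correlated at 0.327, 0.153 and 0.101, so the blocked values stand beside that comparison.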

Additional observations from a re-analysis of the deposited data

Results flagged for a closer look

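The effects on Arnt differed between the lines by a test of the difference itself: the log2 change of Arnt in ARNT KO less that in the libraries labelled AHR KO was −1.30 ± 0.17 SE (edgeR adjusted p = 0.0301). Leaving out any 1 of 8 of the 12 libraries (AHR Flox 1 or 3, AHR KO 1 or 2, any ARNT Flox library or ARNT KO 2) ended this call, with adjusted p up to 0.175. Arnt fell in 3 of 3 ARNT KO libraries relative to every ARNT Flox library.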

How the results depend on the processing

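Of 599 alternatives for 28 member results, 546 kept direction and side of the threshold, 23 lost a call, 5 gained one and 25 changed sign, and 15 results kept both throughout. The cause of the changes was not tested. Arnt in ARNT KO lost its call with only the groups of the contrast (−1.14); leaving out each library gave −1.23 to −1.03, lost without ARNT Flox replicate 2.

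The count of genes called over the whole table moved with the setting. From 11 in the libraries labelled AHR KO it became 28 with no filter, 19 with at least 1 CPM in 3 libraries, 359 with DESeq2 and 82 with limma-voom quality weights, and leaving out a library gave 5 to 136. From 8 in ARNT KO it became 56 with DESeq2, 5 with limma-voom, 422 with quality weights and 1 with only its groups, and 1 to 193 without a library. From 6 in the difference between effects it became 148 with DESeq2 and 238 with quality weights, and 1 to 194 without a library. From 46 between the control lines it became 572, 2395 and 1615 with DESeq2, quality weights and only its groups, and 12 to 1532 without a library. The highest of each range was without ARNT KO replicate 3. In the libraries labelled AHR KO, leaving the top 50 genes by abundance out of TMM split the calls 8 higher to 8 lower, against 7 to 4.

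With the replicate block the counts were 3 in ARNT KO and 23 between the control lines, where Epas1 had an adjusted p of 0.0897. The labels state no shared origin for same-numbered libraries in any pair of groups, the Flox pair included. Residuals of same-numbered libraries correlated at 0.0138, 0.0496 and 0.141 in the AHR lines and −0.0370, −0.00755 and −0.0123 in the ARNT lines. Between the libraries labelled AHR KO and ARNT KO they correlated at 0.164, −0.127 and 0.145.

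Signs turned for small changes. With quality weights Hif3a in ARNT KO was −0.41, Hif1an 0.00215 there and 0.0268 in the difference, Vhl between the control lines 0.0496 and Hsp90aa1 in ARNT KO −0.0262. Vhl between the control lines was 0.0257 with upper quartile scaling and 0.00294 with at least 1 CPM. Leaving out a library gave, in ARNT KO, −0.23 to 0.0491 for Ahr, −0.79 to 0.94 for Hif3a, −0.0621 to 0.0141 for Hif1an, −0.0920 to 0.0825 for Vhl and −0.45 to 0.00271 for Cited2. It gave −1.64 to 0.19 for Hif3a and −0.0414 to 0.0377 for Hif1an in the difference, −0.0538 to 0.00243 for Hif1an in the libraries labelled AHR KO and −0.11 to 0.0689 for Vhl between the control lines. Depth limits Arnt2, Ahrr and Hif3a most.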

Other observations

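Between the control lines, some HIF targets stood higher in ARNT Flox, as Epas1 did; these genes were chosen after their values were seen. Hk2, the hexokinase 2 gene, was at 6.31, 4.76 and 6.87 CPM in ARNT Flox and 2.28, 1.64 and 1.90 CPM in AHR Flox, with no overlap. Its log2 change missed the threshold (1.62, edgeR adjusted p = 0.0615). Ndrg1 was at 21.1, 16.5 and 18.8 CPM against 10.3, 9.91 and 9.69 CPM, again with no overlap and no call (0.92, edgeR adjusted p = 0.107). Ldha, the lactate dehydrogenase A gene, stood the other way, at 561, 580 and 556 CPM in ARNT Flox against 832, 663 and 986 CPM in AHR Flox. It too had no overlap and no call (−0.55, edgeR adjusted p = 0.168). Groups without overlap were seen in 35.8% of all tested genes between these lines. Of the 13 HIF targets tested edgeR called 0 between these lines, with 3 higher and 1 lower at an unadjusted p under 0.05, beside 19.9% of all tested genes in either direction, and the list median was 0.07. DESeq2 called 2, limma-voom 0 and limma-voom with quality weights 5, beside 572, 31 and 2395 of all 13968 genes. Without ARNT KO replicate 3 edgeR called 3 (Ndrg1 and Hk2 higher, Ldha lower), beside 1532 of 14073 genes. The AHR targets had a larger median between the same lines, 0.88 over 5 genes, with 0 called by edgeR, DESeq2 and limma-voom. At an unadjusted p under 0.05 in edgeR 2 were higher and 1 lower, beside the same 19.9%. limma-voom with quality weights called 4 higher and 1 lower. Without ARNT KO replicate 3 edgeR called 4 of 6 higher, beside 898 of 14073 genes called higher.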
